A study of Mus musculus with 6 samples.

Results

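The 9 genes described here are Gclc, Gclm, Gss, Gsr, Glrx, Slc7a11, Slc3a2, Slc1a1 and Ggt7. All but Ggt7 make glutathione, return it to its reduced form, use it on proteins, or bring in the cysteine it is built from. Ggt7 belongs to the gamma-glutamyltransferase family. All 9 were taken by name from a whole-transcriptome array. Every probe that carried a member's gene symbol or a RefSeq transcript of it was used, which gave 25 probes. In all, 17461 named genes had a tested coding probe on this array. The study measured RNA of the prefrontal cortex from 3 wild type and 3 Nrf2 knockout samples, on 1 array each, all from male mice of the outbred ICR stock aged 3 to 4 months. The knockout lacks Nrf2 (gene Nfe2l2), a transcription factor that binds antioxidant response elements in front of stress-defence genes. The comparison asks whether the RNAs of the glutathione system differ in cortex without this factor. Which part of the gene was deleted is not in the labels, nor is it said that every sample was its own animal; p-values here therefore reflect sample-to-sample spread that could be technical.

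Glutathione is the main small thiol antioxidant of the brain. Glutamate-cysteine ligase, made of the catalytic subunit GCLC and the modifier subunit GCLM, joins glutamate to cysteine, and glutathione synthetase adds glycine; once oxidised, glutathione is returned to its reduced form by glutathione reductase. Cysteine limits the first step, and cells take it up as cystine through xCT, the light chain encoded by Slc7a11 that pairs with the heavy chain of Slc3a2, or as cysteine through the neuronal transporter of Slc1a1. Several of these genes, Gclc, Gclm, Gsr and Slc7a11 among them, are textbook Nrf2 targets, and Slc7a11 also answers to the amino acid stress factor ATF4.

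Sequences are shown for the probes whose place in the transcript bears on how their values are read. Each probe is 60 bases long. The Gclm probes are shown because their values moved in opposite directions on some arrays; probe A is given whole and probe B by its first 30 bases.
Gclm probe A: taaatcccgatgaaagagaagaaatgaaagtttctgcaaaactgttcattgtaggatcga
Gclm probe B: aactactgttgctatcttcagagtctttgg
Gclm probe A covers 2636 bases of genome, chromosome 3 from 121962174 to 121964809 on build mm9, so it crosses an exon junction and reads spliced RNA. The same holds for Gss probe A, which covers 1100 bases of chromosome 2, from 155389432 to 155390531. Slc3a2 probe B lies over the start codon, in capitals, at chromosome 19, 8788183 to 8788242, away from the other placed Slc3a2 probe at 8782189 to 8782248.
Gss probe A: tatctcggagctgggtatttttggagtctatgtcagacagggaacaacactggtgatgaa
Slc3a2 probe B: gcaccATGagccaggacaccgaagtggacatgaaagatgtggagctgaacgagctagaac
Some probes of a gene overlap and are not separate measurements of it. Gsr probes A and C share 39 bases and Ggt7 probes A and B share 32. Slc1a1 probes A and C share the 19 bases acacactgtgctgttaact. Positions on mm9 come with the 16 probes of the array's maker, the 9 custom probes carry none, and placement in exons or UTRs was not analysed here.

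RefSeq promoters on build GRCm38.p6 matched 7 of the 9 genes. The antioxidant response element core, TGACNNNGC on either strand, occurred within 250 bases before the start of 1 of these, Gclm, and in 10.2% of 32851 RefSeq promoters cut to the same length. The ATF4 element, TGATGNAA on either strand, occurred in 1 of the 7, Slc7a11, and in 3.45% of all promoters. Slc7a11 holds it on both strands, at 66 to 59 and 47 to 40 bases before the start, and 0.0396% of promoters hold at least 2 copies. The 2 promoters follow, with matches in capitals: Gclm at chr3:122245307-122245556 on the plus strand and Slc7a11 at chr3:50443614-50443863 on the minus strand.
Gclm: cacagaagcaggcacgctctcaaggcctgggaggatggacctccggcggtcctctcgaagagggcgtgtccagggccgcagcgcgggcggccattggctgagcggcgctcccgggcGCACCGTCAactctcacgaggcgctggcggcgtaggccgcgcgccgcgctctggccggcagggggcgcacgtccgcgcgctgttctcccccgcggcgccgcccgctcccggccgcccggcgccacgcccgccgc
Slc7a11: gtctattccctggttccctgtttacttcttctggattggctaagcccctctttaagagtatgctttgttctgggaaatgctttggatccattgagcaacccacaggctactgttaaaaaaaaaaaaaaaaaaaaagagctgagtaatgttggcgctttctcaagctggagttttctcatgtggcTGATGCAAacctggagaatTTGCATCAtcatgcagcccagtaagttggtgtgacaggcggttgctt
A match is a run of letters, not evidence of binding.

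Values below are processed signals on a log2 scale, set so that 0 is the 75th percentile of the array, and the difference between genotypes is knockout minus wild type on this log2 scale. Levels of different probes were not set against each other. On each array 71.0 to 73.4% of probes were well above background, and 105922 probes were tested. Genotype and slide overlapped only in part: the 3 wild type arrays and knockout 1 shared slide 1, and knockouts 2 and 3 were on slide 2. This placement is read from the slide numbers that name the scanner output, since the file headers of knockouts 2 and 3 hold no slide number. Slide 2 had lower 75th percentiles, 245 and 248 against 269 to 280.3, so a fit that takes slide as a block is shown beside the members' differences; in it the genotype difference rests on knockout 1 alone. The targeted gene checked the labels. Of the 3 coding probes of Nfe2l2, 1 was well above background on every array. It lay at 0.35 to 0.49 in wild type and −3.79 to −3.46 in the knockout, a difference of −4.08 (SE 0.12, limma adjusted p = 6.13e-04). The other 2 were not well above background on any knockout array. A probe for a non-coding Nfe2l2 transcript overlapped between groups, at −2.10 to −1.37 against −2.15 to −1.97 (−0.35, adjusted p = 0.393). The 6 markers of excitatory cortical neurons were well above background on all 6 arrays. So were the markers of every other cell type read, so this does not identify the tissue.

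All 9 genes were measured well above background on all 6 arrays at all 25 probes, and 0 of the 25 passed the threshold of an adjusted p of 0.05, against 0.00944% of all tested probes (10 of 105922). At an unadjusted p under 0.05 limma called 0 of the 25, where 15.1% of all tested probes fell under it. Adjusted p-values ran from 0.34 to 0.956 and differences from −0.28 at Gclm probe A to 0.47 at Slc7a11 probe C. Of the 25 differences 11 were below 0, against 45.1% over all tested probes. Their median was 0.021, against 0.028 for all tested probes. Under the slide block 16 of the 25 were below 0, so the members' majority sign turned. Their median was then −0.055, against 0.0037 for all tested probes. Without the block, the 95% confidence interval lay between −1 and 1, a factor of 2 either way, for 24 of 25 probes. It lay between −0.5 and 0.5 for 17. The exception to the wider bound was Slc7a11 probe C. With slide as a block the counts were 21 and 15. The lower ends of the intervals at Slc7a11 probes A to D were then −1.38, −1.17, −2.56 and −1.34.

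**Figure D1:**
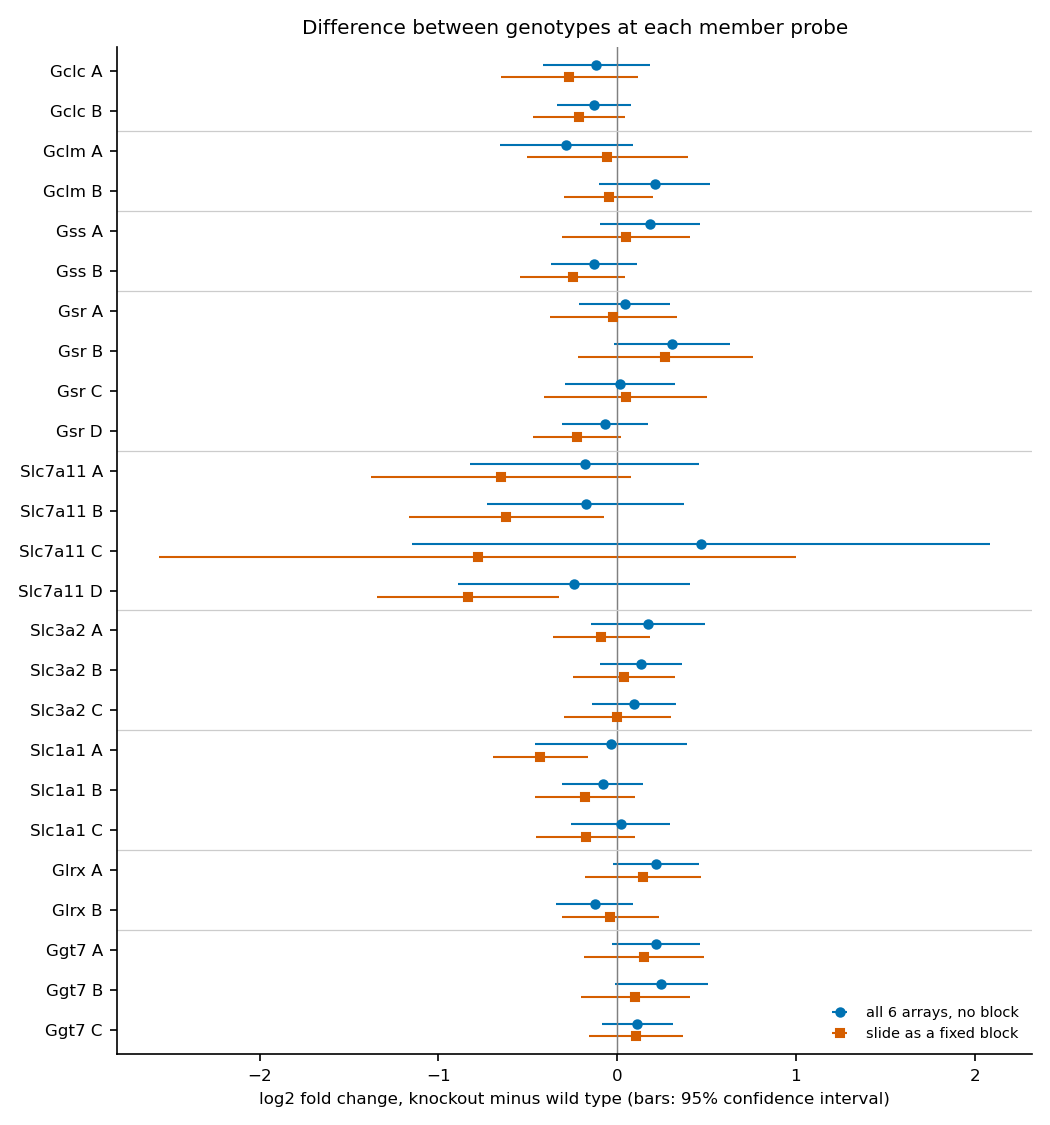
Each row is a member probe; the x axis is the log2 fold change, knockout minus wild type, with bars for its 95% confidence interval, from all 6 arrays (blue circles) and with slide as a fixed block (orange squares). All 25 blue intervals cross 0, and with the block the intervals of Slc7a11 probes B and D and Slc1a1 probe A lie below 0 before any adjustment.

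The groups did not overlap at 7 probes. Gsr probe B, Glrx probe A and the 3 Ggt7 probes were higher on every knockout array than on every wild type array (5 of 25 probes, against 11.1% of all tested probes). Gclc probe B and Gclm probe A were lower on every knockout array (2 of 25, against 10.4%). In 6 of the 9 genes the probes of the gene lay on both sides of 0; both Gclc probes were below 0, and all Slc3a2 and Ggt7 probes were above 0. Of 10 lists of cell type markers, 5 had summed levels that did not overlap between groups, in multiples of the 75th percentile. Red cell markers summed to 625 to 811 in wild type and 839 to 991 in the knockout. The sums were lower in the knockout for endothelial cells (66.8 to 73.5 against 57.0 to 63.1), striatal neurons (32.6 to 34.3 against 31.8 to 32.4), choroid plexus (2.49 to 2.98 against 1.95 to 2.26) and meningeal fibroblasts, given with Slc7a11 below. Of the 6 striatal markers 3 were below 0 and 3 above. The lowest of them, Adora2a, ran from −0.53 to 0.45 over its 3 tested probes. Without its brightest gene, Ly6c1, the endothelial list overlapped (30.2 to 33.6 against 29.8 to 32.9), and so did choroid plexus without Kcnj13 (0.752 to 0.951 against 0.647 to 0.843). The part of these cells in the members' values was not tested.

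**Figure D2:**
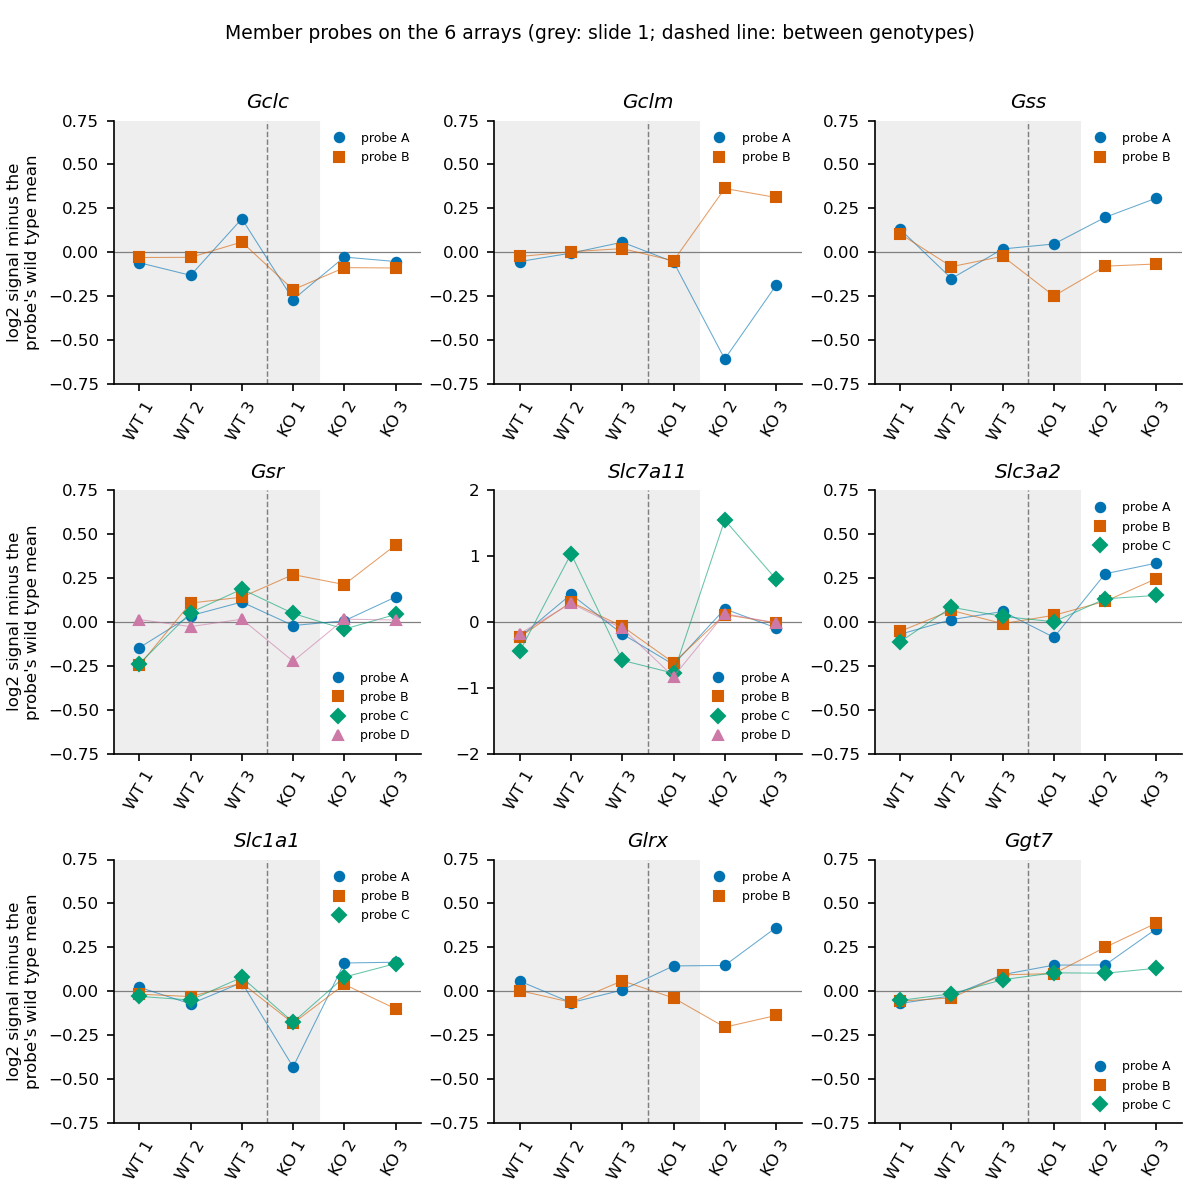
Each panel is a gene; the y axis is the log2 signal minus the mean of that probe's 3 wild type arrays, the x axis lists the 6 arrays, and lines join the values of a probe without implying an order. Slide 1 is shaded and Slc7a11 has a wider y axis; knockout 1 was the lowest of the 6 arrays at all Slc7a11, Slc1a1 and Gclc probes, and the Gclm probes part on slide 2.

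Synthesis begins with Gclc, the catalytic subunit of glutamate-cysteine ligase. At probe A (chromosome 9, 77641296 to 77641355, mm9) wild type measured 3.43, 3.36 and 3.68 and the knockout 3.22, 3.46 and 3.44. At probe B wild type measured 2.47, 2.47 and 2.55 and the knockout 2.28, 2.41 and 2.41. Knockout 1 was the lowest array at both probes, and knockouts 2 and 3 lay inside the wild type range at probe A and below it at probe B. The differences were −0.12 (SE 0.12, adjusted p = 0.632) and −0.13 (SE 0.087, adjusted p = 0.46), neither beyond the spread between arrays by limma. Against its own slide, knockout 1 was −0.27 (SE 0.15) and −0.21 (SE 0.10) from wild type, with adjusted p = 0.921 and 0.901.

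The modifier subunit Gclm, which raises the ligase's efficiency, gave values that depended on the probe. At the junction probe A wild type measured −0.04, 0.01 and 0.07 and the knockout −0.04, −0.60 and −0.18. At probe B wild type measured −0.59, −0.56 and −0.54 and the knockout −0.61, −0.20 and −0.25. Knockout 1 read just below the lowest wild type array at both probes, while on slide 2 probe A was low and probe B high. The differences were −0.28 (SE 0.15, adjusted p = 0.39) and 0.21 (SE 0.13, adjusted p = 0.43). With slide as a block both came to −0.05 (SE 0.18 and 0.099; adjusted p = 0.986 and 0.975). Without knockout 1, which leaves a contrast of slide 2 against slide 1, probe B was 0.34 higher (adjusted p = 0.0494), the only member probe past the threshold in any alternative; 12.8% of all tested probes passed in that fit. Genotype and slide cannot be told apart there.

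Glutathione synthetase, Gss, adds the glycine. At the junction probe A wild type measured −0.06, −0.34 and −0.18 and the knockout −0.15, 0.00 and 0.11, and at probe B wild type measured 2.26, 2.07 and 2.13 and the knockout 1.90, 2.07 and 2.08. The groups overlapped at both probes. Probe A differed by 0.18 (SE 0.12, adjusted p = 0.439) and probe B by −0.13 (SE 0.10, adjusted p = 0.507). Against its own slide, knockout 1 differed by 0.05 and −0.25 (adjusted p = 0.983 and 0.899).

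On the reducing side, glutathione reductase, Gsr, has 4 probes, 3 of them placed on chromosome 8. Its largest difference was at probe B (34807813 to 34807872, mm9), where wild type measured 0.09, 0.44 and 0.48 and the knockout 0.60, 0.55 and 0.77. The knockout was higher on every array there, by 0.31 (SE 0.14, adjusted p = 0.343), and by 0.27 (SE 0.20, adjusted p = 0.934) with slide as a block. The overlapping probes A and C did not show this: wild type measured 1.93, 2.11 and 2.18 against 2.05, 2.08 and 2.21 at probe A, a difference of 0.04 (SE 0.11). Probe C gave 1.52, 1.81 and 1.94 against 1.81, 1.72 and 1.80, a difference of 0.02 (SE 0.13). Probe D gave 3.44, 3.40 and 3.44 against 3.20, 3.44 and 3.44, a difference of −0.07 (SE 0.10), with knockout 1 alone below the other arrays. Blocking on slide gave −0.02, 0.05 and −0.22 at probes A, C and D, with adjusted p = 0.994, 0.988 and 0.892. Wild type 1 was the lowest array at probes A, B and C.

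Glrx, the cytosolic glutaredoxin that uses glutathione to free protein thiols, also gave probes of opposite sign. At probe A (chromosome 13, 75986983 to 75987042, mm9) wild type measured 2.45, 2.33 and 2.40 and the knockout 2.54, 2.54 and 2.76, higher on every knockout array. At probe B wild type measured 2.93, 2.86 and 2.98 and the knockout 2.88, 2.72 and 2.78. The differences were 0.22 (SE 0.10, adjusted p = 0.349) and −0.13 (SE 0.091, adjusted p = 0.484), and with the slide block 0.14 and −0.04 (adjusted p = 0.951 and 0.983).

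Slc7a11, the light chain of the cystine-glutamate antiporter, varied most among the members, within both genotypes. At probe A (chromosome 3, 50176047 to 50176106, mm9) wild type measured −0.56, 0.09 and −0.51 and the knockout −0.98, −0.14 and −0.42. At probe B the values were −1.20, −0.67 and −1.04 against −1.59, −0.86 and −0.98. At all 4 probes wild type 2 was the highest wild type array, knockout 2 was the highest knockout array and knockout 1 was the lowest of the 6.

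Probe C, the Slc7a11 probe of the widest spread, measured −3.05, −1.58 and −3.19 in wild type against −3.39, −1.06 and −1.96 in the knockout (SD 0.90 and 1.17, n = 3 each). Probe D measured 3.15, 3.61 and 3.23 in wild type against 2.50, 3.45 and 3.31 in the knockout. The differences were −0.18 (SE 0.27), −0.18 (SE 0.23), 0.47 (SE 0.67) and −0.24 (SE 0.27) at probes A to D, with adjusted p-values of 0.647 to 0.73. None was beyond the spread between arrays. The 95% confidence interval at probe D ran from −0.89 to 0.41 without a slide block, and its lower end was −1.34 with one.

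Within slide 1, the comparison is 3 wild type arrays against knockout 1, and there all 4 Slc7a11 probes were lower in that array. With slide as a block the differences were −0.65 (SE 0.29), −0.62 (SE 0.22), −0.78 (SE 0.71) and −0.83 (SE 0.20) at probes A to D. Unadjusted p was 0.0325 at probe B and 0.00787 at probe D, and adjusted p was 0.715 to 0.952 over the 4. Under this fit 3 of 25 member probes were under an unadjusted p of 0.05, against 5.69% of all tested probes, and 0 passed the threshold, against 0.00661%. Knockouts 2 and 3 did not share the low values. Without knockout 1 the differences at probes A, B and D were 0.05 each and at probe C 1.10 (adjusted p = 0.243 to 0.897). That contrast sets slide 2 against slide 1, so genotype and slide cannot be told apart in it.

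Other RNAs were also low in knockout 1. Among meningeal fibroblast markers, Dcn measured 3.48, 2.92 and 3.02 in wild type against 2.39, 2.90 and 3.06 in the knockout, and the astrocyte marker Gfap measured 3.64, 3.14 and 2.92 against 2.37, 2.98 and 2.89. Not every marker of these lists was lowest there. The astrocyte marker Aldoc was highest in knockout 1, at 7.51 against 7.30 to 7.46 in wild type, and Aldh1l1 lay inside the wild type range. The meningeal marker Igf2 was lower in knockouts 2 and 3 than in knockout 1. All 6 meningeal markers were below 0, with a median difference of −0.41, and their summed level was 35.5 to 52.1 times the 75th percentile in wild type and 28.2 to 35.1 in the knockout, lowest in knockout 1; without the brightest gene, Igf2, the sums overlapped (23.7 to 35.9 against 17.1 to 25.4). The 6 astrocyte markers had a median difference of −0.05 and summed to 289 to 309 in wild type and 292 to 302 in the knockout, with knockout 1 inside the wild type range; without the brightest gene, Aldoc, they summed to 131 to 135 and 110 to 130. No marker of either list was below background on any array. The part of these cells in the Slc7a11 values was not tested, and in a bulk sample fewer cells of a type and less RNA per cell cannot be told apart.

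**Figure D3:**
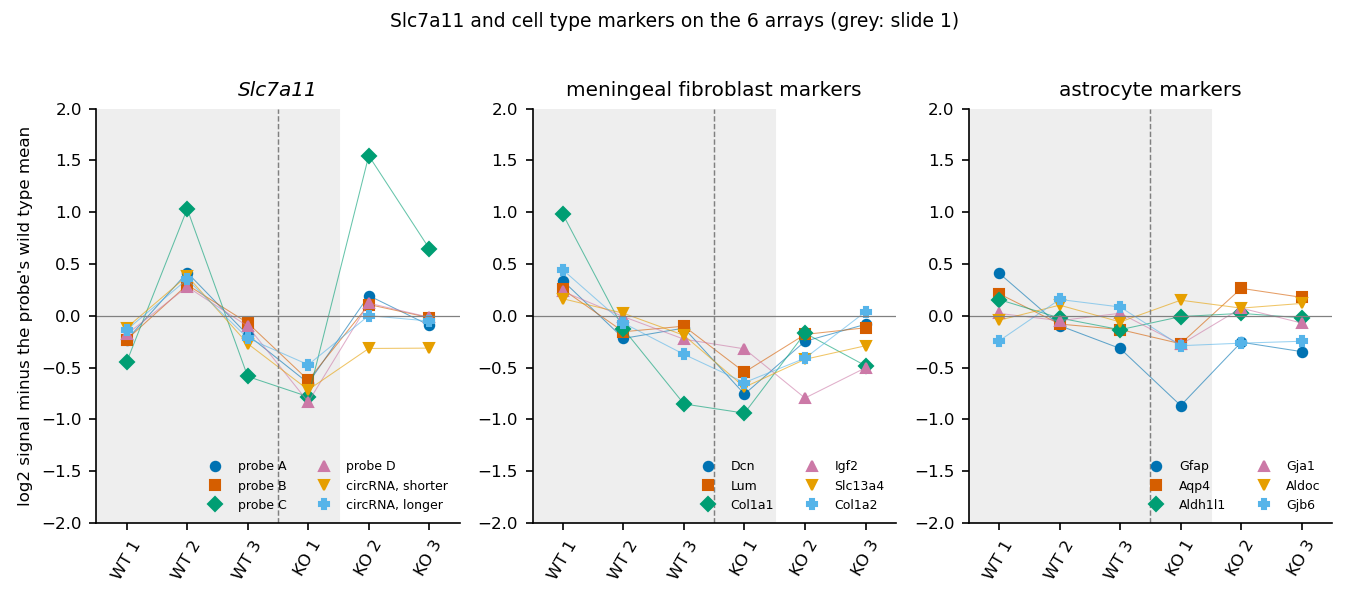
The y axis is the log2 signal minus the mean of that probe's 3 wild type arrays, for the 6 arrays on the x axis with slide 1 shaded: the 4 Slc7a11 probes and 2 circular RNAs from the gene, the 6 meningeal fibroblast markers and the 6 astrocyte markers. Lines join the values of a probe without implying an order; every Slc7a11 series is lowest in knockout 1 and highest in wild type 2 or knockout 2.

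Slc3a2, the heavy chain that carries xCT and other amino acid transporters to the membrane, was slightly above 0 at all 3 probes. Probe A measured 4.95, 5.03 and 5.08 in wild type against 4.93, 5.29 and 5.36 in the knockout. The start-codon probe B measured −0.09, 0.03 and −0.04 against 0.00, 0.08 and 0.21, and probe C, designed to another RefSeq transcript of the gene, −2.68, −2.48 and −2.53 against −2.56, −2.43 and −2.41. In each case knockouts 2 and 3 were above all arrays of slide 1 and knockout 1 was beside or inside the wild type range. The differences were 0.17 (SE 0.13), 0.13 (SE 0.095) and 0.09 (SE 0.097), with adjusted p-values of 0.483 to 0.622. Blocking on slide gave −0.09, 0.04 and 0.00.

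Slc1a1, the neuronal glutamate transporter that also takes up cysteine, gave differences near 0, with low values in knockout 1. Probe A (chromosome 19, 28988332 to 28988391, mm9) measured 4.58, 4.49 and 4.61 in wild type against 4.13, 4.72 and 4.72 in the knockout. Probe B measured 1.93, 1.92 and 1.99 against 1.76, 1.99 and 1.85, and probe C 3.66, 3.64 and 3.76 against 3.51, 3.77 and 3.84. Knockout 1 was the lowest array at all 3 probes. The differences were −0.03 (SE 0.18), −0.08 (SE 0.094) and 0.02 (SE 0.12), with adjusted p-values of 0.662 to 0.935. With slide as a block they were −0.43 (SE 0.11, unadjusted p = 0.00808, adjusted p = 0.717), −0.18 (SE 0.11) and −0.18 (SE 0.11). Arl6ip5, whose protein binds the transporter and lowers its activity, differed by 0.01 (SE 0.12, adjusted p = 0.98) at its brightest probe and by 0.21 at the other.

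Ggt7, a member of the gamma-glutamyltransferase family, whose better known enzymes break down glutathione outside the cell, was higher on every knockout array at all 3 probes. The overlapping probes A and B (chromosome 2, 155316376 to 155316435 and 155316348 to 155316407, mm9) measured 3.72, 3.76 and 3.88 against 3.94, 3.94 and 4.15, and 3.59, 3.61 and 3.74 against 3.75, 3.90 and 4.03. Probe C measured 5.62, 5.65 and 5.73 in wild type against 5.77, 5.77 and 5.80 in the knockout. The differences were 0.22 (SE 0.10), 0.25 (SE 0.11) and 0.11 (SE 0.082), with adjusted p = 0.353, 0.34 and 0.491. Probe B had the smallest unadjusted p of the 25 (0.0589). With slide as a block the differences were 0.15, 0.10 and 0.11, and in all 17 alternatives the 3 stayed above 0. Over the 6 arrays, the coding probes outside the members that followed Ggt7 probe B most closely were those of Ttll5 (Pearson's r = 0.999), Rogdi (0.999) and Lrfn3 (0.998), of 38882 compared; 2520 had r over 0.9, and all share the same 6 samples and slides.

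Knockout 1 lay below all 3 wild type arrays at 14 of the 25 member probes, against 26.0% of all tested probes, and above them at 5, against 25.1%. It was below at every probe of 4 genes, Gclc, Gclm, Slc7a11 and Slc1a1, and at single probes of Gss, Gsr and Slc3a2. The 5 probes where it was above are those of Ggt7, Glrx probe A and Gsr probe B. Knockouts 2 and 3 were both above all arrays of slide 1 at 10 of the 25, against 24.8%, and both below at 2, against 20.3%. Probes of a gene are not independent, and these counts carry no test.

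Circular RNAs, closed loops spliced from exons of a gene, are another readout of the same loci. The array holds 13 such probes inside 5 of the 9 genes (Gclm, Gss, Gsr, Slc7a11 and Slc3a2), of which 10 were tested and 0 passed the threshold, against 0.00289% of all tested circular RNA probes; 1 had an unadjusted p under 0.05, against 14.8%. Their median difference was −0.11, against 0.08 for all tested circular RNAs. Positions are as their names give them, and the build, not given in the sources used here, was read as GRCm38, since 97.3% of all circular RNA positions lie inside a coding gene of that build. Some circular RNAs share an end, as the tested Slc7a11 RNAs do at 50417988 and the Slc3a2 RNAs set side by side below do at 8713752. Whether their probes share bases with each other or with the linear probes was not checked.

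Both tested Slc7a11 circular RNAs were lowest in knockout 1 and highest in wild type 2, as the linear probes A, B and D were. The RNA at chromosome 3, 50417988 to 50435464, measured −3.00, −2.50 and −3.16 in wild type against −3.60, −3.20 and −3.20 in the knockout, lower on every knockout array (−0.45, SE 0.20, adjusted p = 0.346). That at 50417988 to 50438915 measured −1.38, −0.89 and −1.46 against −1.72, −1.24 and −1.29 (−0.17, SE 0.20, adjusted p = 0.653). In the former, knockouts 2 and 3 also lay below all wild type arrays, which they did at no linear Slc7a11 probe. With normexp background correction and quantile normalization the difference of this RNA was −0.16. The slide block gave −0.71 (adjusted p = 0.853) and −0.47 (adjusted p = 0.904). A Gss circular RNA (chromosome 2, 155571519 to 155578787) was also lower on every knockout array, at −0.71, −0.91 and −0.98 against −1.04, −1.10 and −1.17 (−0.24, SE 0.10, adjusted p = 0.339, and −0.18 with the slide block). Over all tested probes 10.4% were lower on every knockout array.

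Circular RNAs of Slc3a2 gave opposite signs. That at chromosome 19, 8708034 to 8713752, measured −0.99, −0.88 and −0.85 in wild type against −0.74, −0.51 and −0.36 in the knockout. It was higher on every knockout array, as were 11.1% of all tested probes, by 0.37 (SE 0.12, unadjusted p = 0.0206, adjusted p = 0.31). That at 8712730 to 8713752 measured −1.18, −1.11 and −1.19 against −0.99, −2.31 and −2.09: high in knockout 1 and low on both slide 2 arrays (−0.63, SE 0.33, adjusted p = 0.38). Without knockout 1 both passed the threshold, at 0.47 (adjusted p = 0.0365) and −1.03 (adjusted p = 0.00459), where 12.8% of all tested probes did and genotype and slide cannot be told apart. The fit with slide as a block gave 0.17 (adjusted p = 0.935) and 0.18 (adjusted p = 0.934).

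The genes around the members were read from 6 lists of 50 genes, with the brightest tested probe of each gene. Other probes of a gene could differ from it in size or sign, so the lowest and highest genes named rest on this choice. By limma 0 of the 50 passed the threshold, against 0.00944% of all tested probes, and 1 had an unadjusted p under 0.05, against 15.1%. The median difference was 0.01; adjusted p-values ran from 0.327 to 0.993.

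Among 12 other genes of glutathione breakdown and recycling, 6 were above 0 and 6 below, with a median of −0.04. The lowest was Anpep, an aminopeptidase that trims the peptides left by glutathione breakdown, at −0.39 (SE 0.16, adjusted p = 0.327; −0.57 with the slide block), and the highest was the dipeptidase Dpep1 at 0.23 (SE 0.15, adjusted p = 0.453). Among 9 genes of cysteine supply and use the median was −0.01. Cdo1, which oxidises cysteine, was lowest at −0.25 (SE 0.11, adjusted p = 0.334), and Ahcy, which makes homocysteine, was highest at 0.64 (SE 0.55, adjusted p = 0.55). The Ahcy value rests on wild type 1, at −1.34 where the other 5 arrays read 0.64 to 0.75, and without that array the difference was −0.05. The other tested probe gave 0.06 for Cdo1 and 0.17 for Ahcy. The slide block changed the sign of the medians of 3 lists: cysteine supply and use to 0.02, and, of the lists that follow, the transporters to −0.06 and the glutaredoxin group to −0.01.

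Among 10 other SLC1 transporters and partner light chains of SLC3A2 the median was 0.03, from Slc1a5 at −0.31 (SE 0.14, adjusted p = 0.346) to Slc7a10 at 0.33 (SE 0.15, adjusted p = 0.352). Both carry small neutral amino acids. Their other tested probes gave −1.32 at Slc1a5 and 0.56 at Slc7a10. Among 8 glutaredoxins, glyoxalases and mitochondrial glutathione carriers the median was 0.02, from Esd, an esterase that acts on a glutathione conjugate of formaldehyde, at −0.31 (SE 0.22, adjusted p = 0.489) to the mitochondrial glutathione carrier Slc25a39 at 0.17 (SE 0.099, adjusted p = 0.415).

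ATF4 is another factor known to drive Slc7a11, and letters that match its element occur in the promoter shown above. Among 10 genes, Atf4 and targets, 5 were above 0 and 5 below, with a median of −0.01. The highest was Shmt2, a serine and glycine enzyme, at 0.15 (SE 0.10, adjusted p = 0.452). The lowest was the stress sensor Sesn2 at −0.69 (SE 0.36, adjusted p = 0.386), fitted without wild type 1, whose spot was marked as an outlier. Its other tested probe, less bright, differed by −0.10. The brightest Sesn2 probe measured 3.95 and 4.08 in wild types 2 and 3, 4.05 in knockout 1 and 2.98 and 2.96 in knockouts 2 and 3. It was thus low on both slide 2 arrays only, and the difference was 0.03 with slide as a block and −1.05 (adjusted p = 0.00866) without knockout 1.

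**Figure D4:**
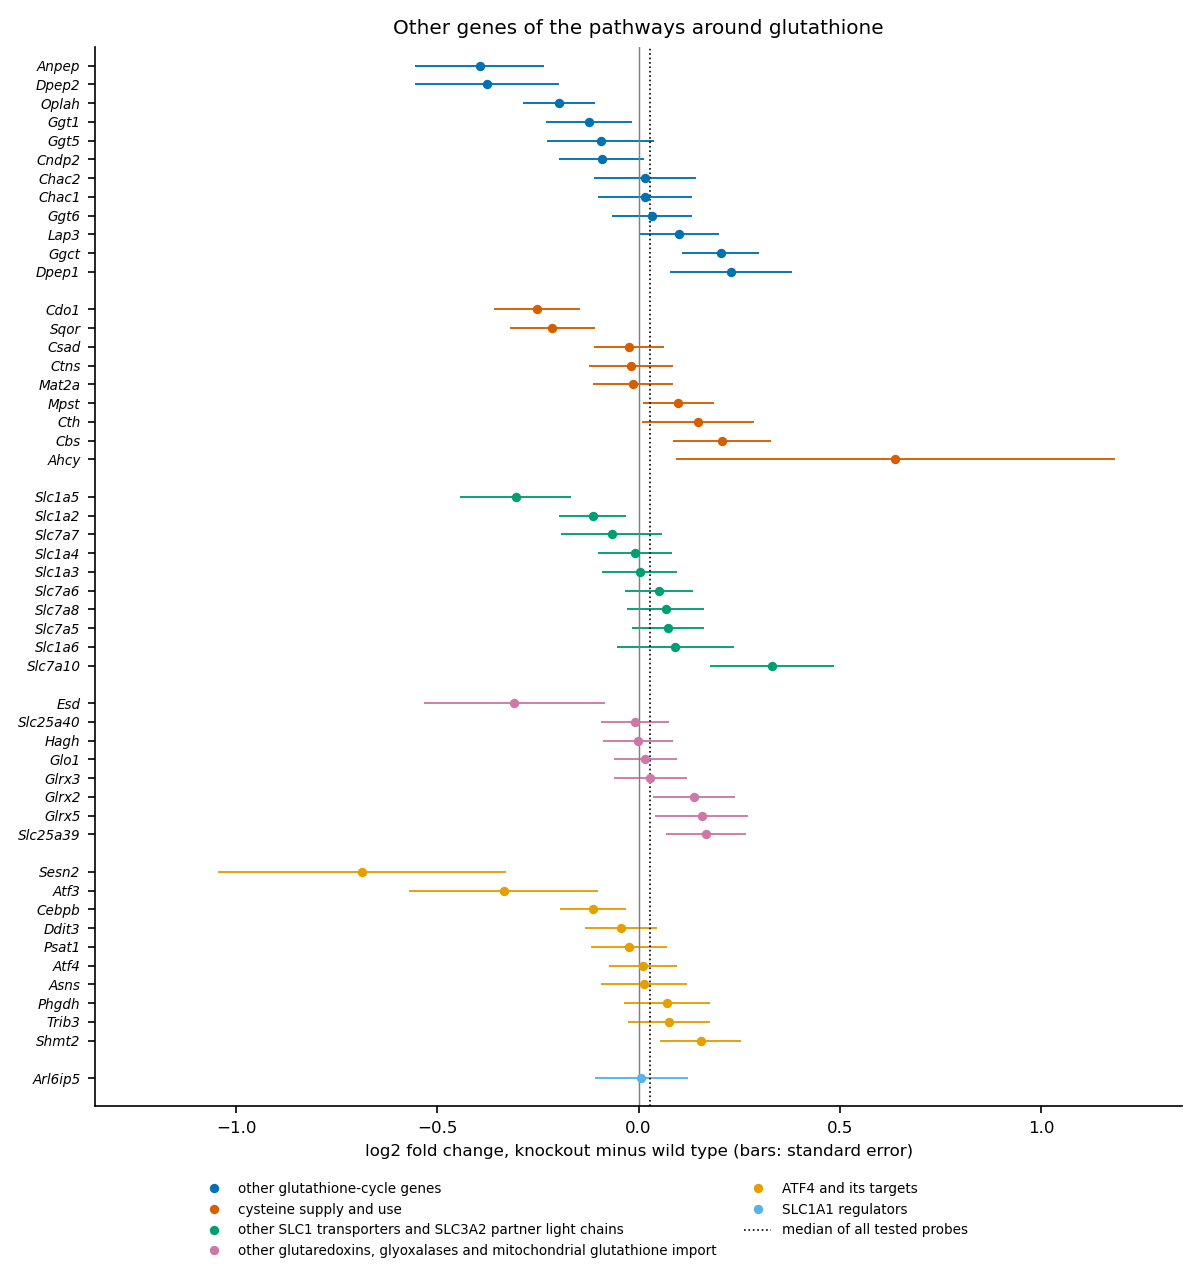
Each row is a gene of the 6 lists, sorted within its list; the x axis is the log2 fold change, knockout minus wild type, with bars for its standard error, and the dotted line is the median of all tested probes, 0.028. Most genes lie near that line. Sesn2 at −0.69 and Ahcy at 0.64 lie farthest out, with wide bars, each by its brightest tested probe.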

How the data were processed

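Per the labels' protocols, total RNA was column-purified, labelled with Cy3 and hybridised to 1-colour Agilent arrays. The deposited scanner output gives intensity on a linear scale; the file headers name Feature Extraction 12.0.3.1, the submitters' processing notes 10.7 and limma. The authors' deposited value table is log2, by its match to log2 of these signals (r at least 0.99986; column medians 5.588 or 5.589); it differed from quantile-normalised log2 signals by a median of 0.00355 to 0.00432 per array, and it served as an alternative. Slides were read from the names of the deposited scanner output; the headers of 2 arrays, knockouts 2 and 3, hold no slide number.

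For each spot, log2 processed signal minus its array's 75th percentile was taken; 4974 control spots were left out and outlier-marked spots treated as missing. A probe was tested if well above background on all 3 arrays of at least 1 group. The knockout was tested against wild type in limma (version 3.58.1, R 4.3.3; lmFit, eBayes, no covariate), two-sided, with Benjamini-Hochberg adjustment over 105922 probes and a threshold of 0.05; the code was tested on simulated data. Levels are given per array or as mean ± SD, and errors of differences are SE. Array number limits the precision. Members and gene lists were chosen with earlier results of these data known, so nothing was tested over a list. Named were all members, Nfe2l2, and the lowest and highest gene of each list; circular RNAs and markers were named after their values were seen. Alternatives were the array scaling, background correction, the deposited values, the filter, outlier marks, slide, replicate number, the variance prior and each array left out.

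Markers of 10 cell types were read (59 genes, all well above background on every array); median differences were 0.05 for excitatory and −0.04 for inhibitory neurons, −0.05 for astrocytes, 0.02 for oligodendrocytes, −0.06 for microglia, −0.01 for endothelial cells, −0.32 for choroid plexus, −0.18 for striatal neurons, −0.41 for meningeal fibroblasts and 0.53 for red cells.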

Additional observations from a re-analysis of the deposited data

How the results depend on the processing

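Over 17 alternatives, member probes crossed 0 in 25 of 425 values. The count past the threshold over all tested probes, 10, was 4 with probes well above background on all 6 arrays, 4 on slide 1 only and 21 with an intensity trend and robust prior; leaving out 1 array at a time it ran from 5 to 13558, the highest without knockout 1. Leaving out 1 array gave 0 to 1 member probes past the threshold, a member median of −0.024 to 0.117, 0 to 2 circular RNAs inside members and 0 to 1 ATF4 list genes, each upper value without knockout 1. With the replicate block 2 of all tested probes passed, and no member did. Deviations of same-numbered samples from their group means had correlations of −0.01, −0.05 and 0.04 for numbers 1, 2 and 3. With 3 arrays per group and slide varying within the knockout, these cannot show whether the samples were paired.

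With slide as a block, and equally on slide 1 only, signs turned for Gclm probe B (−0.05), Gsr probe A (−0.02), Slc7a11 probe C (−0.78), Slc3a2 probe A (−0.09), Slc1a1 probe C (−0.18), the circular RNA at 8712730 (0.18), Sesn2 (0.03) and Arl6ip5 (−0.05). Centring on the median turned Slc1a1 probe A (0.02) and normexp Arl6ip5 (−0.02). Leaving out 1 array, the ranges that crossed 0 were −0.03 to 0.10 for Gsr probe A, −0.10 to 0.11 for C and −0.11 to 0.01 for D; −0.37 to 0.05, −0.32 to 0.05, −0.07 to 1.10 and −0.42 to 0.05 for Slc7a11 probes A to D; −0.13 to 0.16 and −0.05 to 0.12 for Slc1a1 probes A and C; −0.28 to 0.0017 for the Slc7a11 circular RNA at 50438915; −0.05 to 0.99 for Ahcy; and −0.10 to 0.08 for Arl6ip5. The cause was not tested. All members were well above background on every array.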
